A study of Mus musculus with 6 samples.

Results

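The genes of the major histocompatibility complex (MHC) and of antigen presentation were examined in mammary epithelial cells (MECs). The group was made of the protein-coding genes of the count table whose symbol begins with H2-, the mouse MHC, together with B2m, Cd74, Ciita, Nlrc5, Tap1, Tap2, Tapbp, Psmb8, Psmb9, Psmb10, Cd1d1 and Mr1. This gave 46 of the 55487 genes in the table, of which 32 stand on the class I side, 11 on the class II side and 2 are class I-like, and 1, H2-Ke6, is a steroid dehydrogenase gene named for its place in the H2 region. The MECs came from 3 wild-type (WT) and 3 IL-21isoTg female virgin BALB/c mice, 10 weeks of age, whose estrous stage was randomized. IL-21isoTg mice carry a transgene for a membrane-bound isoform of IL-21 that is expressed specifically in T cells. MECs were the cells left after magnetic removal of cells carrying CD45, CD31 or CD140a, which mark leukocytes, endothelium and fibroblasts, and 1 library was made per mouse.

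MHC class I molecules consist of a heavy chain and the light chain β2-microglobulin and show peptides from inside the cell to CD8+ T cells. The peptides are cut by the proteasome, whose interferon-induced subunits form the immunoproteasome, carried into the endoplasmic reticulum by the TAP transporter and loaded with the help of tapasin. MHC class II molecules are α and β chain pairs that are guided by the invariant chain, exchange its last fragment for a peptide with the help of H2-DM, and show peptides to CD4+ T cells. Nearly all cells carry class I, while class II is mainly found on dendritic cells, B cells and macrophages and can be induced by interferon gamma in epithelium. BALB/c mice carry the d haplotype of H2, whereas the mouse reference genome is from C57BL/6, which carries the b haplotype, so reads of polymorphic H2 genes were aligned to another haplotype.

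The total count on genes was between 15902886 and 25719244 per mouse. A count of 3, the upper limit that a count of 0 allows, corresponds to 0.112 to 0.280 CPM (counts per 1000000, normalized with TMM throughout), which covers counting error only. Il21 itself had 0, 0 and 37 counts in WT mice and 795, 216 and 131 in IL-21isoTg mice, so the library of WT mouse 3 was not free of it. A list of 15 salivary gland genes took 22.9%, 6.59% and 15.7% of the counts in WT mice and 22.5%, 4.92% and 41.0% in IL-21isoTg mice, and the library with the largest share, IL-21isoTg mouse 3, also had the lowest total. The luminal keratin gene Krt8 stood at 2193 ± 446 CPM in WT and 2337 ± 691 CPM in IL-21isoTg mice (SD, n = 3 each here and below), Epcam, an epithelial adhesion molecule, at 928 ± 192 and 852 ± 191 CPM, and Krt5, a keratin of basal cells, at 234 ± 91.7 and 264 ± 84.0 CPM. Against these, Ptprc, which encodes CD45, stood at 6.04 ± 3.65 and 6.26 ± 2.70 CPM. In such bulk libraries, fewer cells of a type and less RNA per cell cannot be told apart.

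Of the 46 genes, 33 had enough counts to be tested and were compared between the genotypes with edgeR's quasi-likelihood test, with p-values adjusted by the Benjamini-Hochberg method over all 17165 genes tested. An adjusted p under 0.05 was reached by 0 of the 33 and by 0 of all 17165 (0%). At an unadjusted p under 0.05, 3 of the 33 were higher in IL-21isoTg MECs and 0 lower, where 3.19% of all tested genes were higher and 2.63% lower. The 3 were H2-Q1 of class I, the class I-like gene Cd1d1 and H2-DMb1 of class II, and in the same 3 genes every IL-21isoTg mouse lay above every WT mouse. H2-DMb1 passed the filter on low counts only through the IL-21isoTg mice. A difference was thus a condition of its being tested, and nothing is read from its place in these counts. Over all tested genes, the genotypes did not overlap with IL-21isoTg higher in 5.54% and with IL-21isoTg lower in 6.54%. On the class I side, 1 of 22 tested genes was higher in this way, 9 had a fitted log2 fold change above 0 and 13 below, and their median was -0.04. On the class II side, it was 1 of 9, the same H2-DMb1, with 4 above 0 and 5 below and a median of -0.01. The median over all tested genes was -0.02. Fold changes are given below for the 10 genes whose log2 fold change was at least 1 standard error (SE) from 0 and for the chains H2-K1, H2-D1, B2m, Cd74, H2-Aa, H2-Ab1 and H2-Eb1. The other 16 tested genes lay between -0.21 and 0.70 on the log2 scale.

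**Figure D1:**
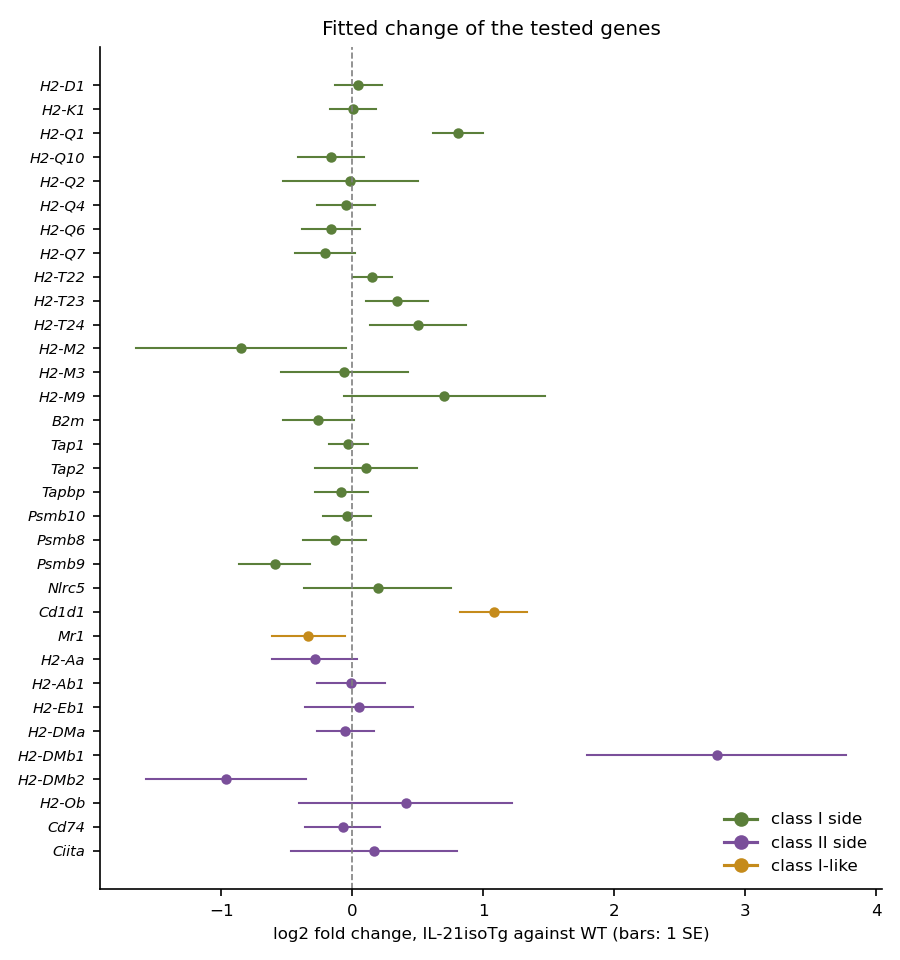
Fitted log2 fold change of the 33 tested genes in IL-21isoTg against WT MECs, with bars of 1 SE, in order of role from class I heavy chains (top) to the class II transactivator (bottom). Most genes lie within 1 SE of 0. H2-Q1 at 0.81, Cd1d1 at 1.08 and H2-DMb1 at 2.78 lie farthest to the right, and H2-DMb2 at -0.97 farthest to the left.

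The classical class I heavy chains H2-D1 and H2-K1 were abundant transcripts of these MECs and overlapped between the genotypes. H2-D1 (chromosome 17, 35262730 to 35267499 of GRCm38, plus strand), which presents peptides to CD8+ T cells, had 749, 785 and 720 CPM in WT mice and 787, 730 and 811 CPM in IL-21isoTg mice. Its level per kilobase of exon was 291 CPM in WT and 301 CPM in IL-21isoTg mice and, over all mice, above that of 99.2% of tested genes. H2-K1 (chromosome 17, 33996017 to 34000347, minus strand), the other classical chain present in the reference, had 357, 324 and 267 CPM in WT and 316, 304 and 332 CPM in IL-21isoTg mice. In both genes the genotypes overlapped. The log2 fold change was 0.05 for H2-D1 (SE 0.18, 95% interval -0.37 to 0.47, adjusted p = 0.970) and 0.01 for H2-K1 (SE 0.18, 95% interval -0.40 to 0.41, adjusted p = 0.996). Changes within these intervals remain compatible with the values of 3 mice against 3. The d haplotype also carries another classical gene, H2-L, which the reference lacks, and no row of the table stands for it. Summed over the 24 class I heavy chains, the level was 1690 ± 32.8 CPM in WT and 1752 ± 109 CPM in IL-21isoTg mice (exact permutation test, two-sided, p = 0.5).

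Of the 6 class I genes of the Q region, H2-Q4 was the most abundant and H2-Q1 the gene whose genotypes did not overlap. H2-Q1 (ENSMUSG00000079507, chromosome 17, 35320405 to 35325099, plus strand) had 14.3, 14.7 and 12.9 CPM in WT mice and 20.2, 24.8 and 28.4 CPM in IL-21isoTg mice, on 287 to 666 counts. The WT mice lay close together and the lowest IL-21isoTg mouse stood above all of them. The log2 fold change was 0.81 (SE 0.19, 95% interval 0.36 to 1.25, adjusted p = 0.677), a 1.75-fold higher level, and the exact permutation test gave p = 0.1, the smallest that 3 mice against 3 allow. H2-Q4 had 235, 218 and 320 CPM in WT and 248, 201 and 297 CPM in IL-21isoTg mice. H2-Q6 and H2-Q7, which encode the nonclassical Qa-2 antigen, had 107, 67.9 and 66.4 CPM and 42.7, 28.6 and 33.0 CPM in WT mice against 71.3, 62.9 and 81.0 CPM and 29.3, 23.6 and 37.5 CPM in IL-21isoTg mice. These 3 genes overlapped between the genotypes, as did H2-Q10 and H2-Q2, whose levels ranged from 1.86 to 16.6 CPM over the mice.

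H2-Q1 shares sequence with the far more abundant H2-D1, which matters for how its reads can be placed. In the C57BL/6 reference (GENCODE M21 transcripts), the coding sequence of H2-Q1 was 85.4% identical to that of H2-D1, the highest of the class I heavy chains compared. Of all 150-base windows of its 1107 coding bases, 3.65% were found unchanged in a transcript of another gene, H2-D1, and of all 75-base windows 17.3%, in H2-D1 and other genes. The following 120 bases are the same in both genes, at chr17:35323111-35323230 in H2-Q1 and chr17:35265831-35265950 in H2-D1 (GRCm38, plus strand). They are shown because sequence from within this stretch alone does not tell the reference genes apart. A full 150-base read reaches beyond it, but 3.65% of the 150-base windows of H2-Q1 were unchanged in H2-D1 as well.
H2-Q1 and H2-D1, shared: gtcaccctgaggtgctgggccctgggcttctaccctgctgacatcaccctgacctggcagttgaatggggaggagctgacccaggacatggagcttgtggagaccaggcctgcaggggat
The 60-base stretches that follow are where both genes differ most, with 16 differing bases in capitals, at chr17:35320999-35321058 and chr17:35263557-35263616 (plus strand). They show the kind of sequence on which an assignment to H2-Q1 rests.
H2-Q1: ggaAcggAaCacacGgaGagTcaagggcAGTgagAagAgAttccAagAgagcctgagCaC
H2-D1: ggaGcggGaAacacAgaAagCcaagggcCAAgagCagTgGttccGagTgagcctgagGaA
In the d haplotype of BALB/c these genes have other alleles, which the files used here do not hold. How the counting treated reads with several matches was not given in the sources used here. The sum of H2-Q1 and H2-D1 was 765 ± 33.3 CPM in WT and 801 ± 42.9 CPM in IL-21isoTg mice (exact permutation test, p = 0.4), so H2-Q1 made up a small part of it.

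In the T region, the 3 tested genes had log2 fold changes above 0, none with an unadjusted p under 0.05. H2-T23, which encodes Qa-1, a ligand of the inhibitory NKG2A receptor, had 101, 185 and 149 CPM in WT mice and 188, 203 and 159 CPM in IL-21isoTg mice, a log2 fold change of 0.34 (SE 0.24, adjusted p = 0.827). H2-T22, which is recognized by some γδ T cells, had 59.6, 59.6 and 56.8 CPM against 58.8, 61.8 and 75.3 CPM, a log2 fold change of 0.15 (SE 0.15, adjusted p = 0.868). H2-T24 had 8.66, 9.18 and 4.90 CPM against 11.2, 6.48 and 14.6 CPM, a log2 fold change of 0.50 (SE 0.37, adjusted p = 0.829). All 3 overlapped between the genotypes, and for H2-T23 the overlap rested on IL-21isoTg mouse 3, which lay below WT mouse 2. H2-T3, the thymus leukemia antigen known from the intestine, was not tested, with 0, 1 and 0 counts in WT and 2, 5 and 0 in IL-21isoTg mice.

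Most of the 12 class I genes of the M region were at or near 0 in MECs. No count was found in any mouse for H2-M1, H2-M10.1, H2-M10.2, H2-M10.4 and H2-M10.5. H2-M10.3 and H2-M10.6 had 1 count each over all mice, H2-M5 had 2 and H2-M11 at most 7 in a mouse, so the M10 family, which is known from vomeronasal neurons, was not detectable at this depth beyond single counts. The gene with the highest level of this region was H2-M3, which presents N-formylated peptides of bacteria and mitochondria, with 3.25, 9.18 and 4.54 CPM in WT and 4.99, 8.04 and 3.08 CPM in IL-21isoTg mice. Its order followed neither genotype, and the mice with the smallest salivary gland share, WT mouse 2 and IL-21isoTg mouse 2, were the highest of their genotype, a relation that was not tested. H2-M2 rested on 13, 10 and 10 counts in WT and 14, 3 and 1 counts in IL-21isoTg mice, a log2 fold change of -0.85 (SE 0.81, adjusted p = 0.861), and without IL-21isoTg mouse 1 it was -2.20. H2-M9 had 5 to 44 counts.

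**Figure D2:**
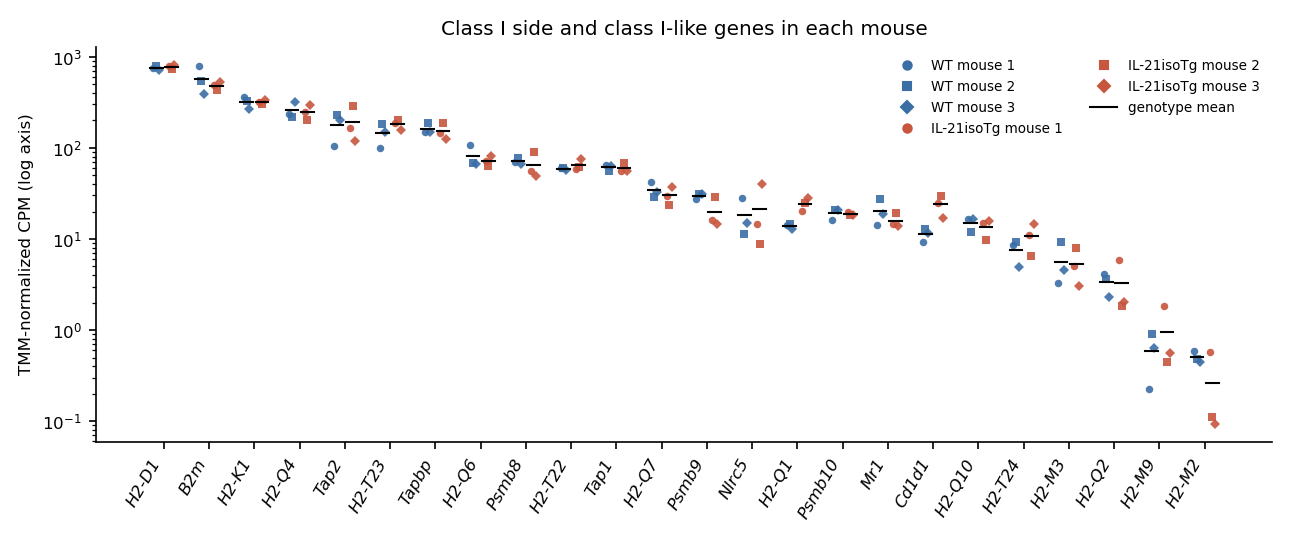
TMM-normalized CPM (log axis) of the tested class I side and class I-like genes in each of the 3 WT (blue) and 3 IL-21isoTg (red) mice, ordered by mean level, with horizontal bars for genotype means. The points span from 0.0933 CPM for H2-M2 to 811 CPM for H2-D1. The genotypes lie apart only for H2-Q1 and Cd1d1 in this set.

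The light chain and the peptide loading genes overlapped between the genotypes. B2m (chromosome 2, 122147686 to 122153083, plus strand), the light chain shared by all class I molecules, had 784, 544 and 392 CPM in WT and 486, 426 and 524 CPM in IL-21isoTg mice. The WT mice spanned a 2.00-fold range that enclosed every IL-21isoTg mouse, and the log2 fold change was -0.26 (SE 0.27, 95% interval -0.88 to 0.36, adjusted p = 0.873). Without WT mouse 1 it was 0.05. Per kilobase of exon, B2m was at 667 CPM in WT and 557 CPM in IL-21isoTg mice, the highest level of the 46 genes. Tap1, a subunit of the peptide transporter, was among the most even, with 64.3, 56.3 and 63.3 CPM against 56.2, 67.6 and 56.0 CPM. Tap2, the other subunit, had 104, 231 and 202 CPM in WT and 167, 290 and 119 CPM in IL-21isoTg mice. The mice with the smallest salivary gland shares, 4.92% and 6.59%, had the highest Tap2 levels, and those with the largest, 41.0% and 22.9%, the lowest. The part of that share in the Tap2 level was not tested. Tapbp, which encodes tapasin, had 150, 188 and 149 CPM against 145, 189 and 125 CPM.

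The 3 inducible subunits that turn the proteasome into the immunoproteasome all had fitted values below 0 in IL-21isoTg MECs, and Psmb9 was the farthest from 0. Psmb8 and Psmb10 lay within 1 SE of 0 and changed sign under at least 1 alternative. The sign was not particular to the inducible subunits. The constitutive subunit genes Psmb5, Psmb6 and Psmb7 also had log2 fold changes below 0 (-0.09, -0.07 and -0.18). Psmb9 (chromosome 17, 34181987 to 34187764, minus strand) had 27.6, 31.0 and 30.9 CPM in WT mice and 16.0, 28.7 and 14.5 CPM in IL-21isoTg mice. IL-21isoTg mice 1 and 3 lay below every WT mouse, and IL-21isoTg mouse 2 lay among them. The log2 fold change was -0.59 (SE 0.27, 95% interval -1.22 to 0.04, unadjusted p = 0.0614, adjusted p = 0.809), and without IL-21isoTg mouse 2 it was -0.97 (adjusted p = 0.436, the lowest over the alternatives, with 0.994 the highest). The annotated start of Psmb9, at 34187764 on the minus strand, overlaps the start of Tap1, which lies on the other strand from 34187553. Whether the counting used the strand was not given in the sources used here. Psmb8, which lies next to Tap1 on the same strand, had 69.6, 77.4 and 67.2 CPM against 55.7, 90.5 and 48.5 CPM, with IL-21isoTg mice 1 and 3 again lowest and mouse 2 the highest of all mice. Psmb10, on chromosome 8, had 16.1, 20.8 and 20.97 CPM against 19.5, 18.5 and 18.2 CPM and was even between the genotypes.

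Nlrc5, the transactivator of class I genes, had 28.5, 11.4 and 14.9 CPM in WT and 14.5, 8.90 and 39.9 CPM in IL-21isoTg mice, so mice of the same genotype differed by more than the genotype means, which were 18.3 ± 9.01 and 21.1 ± 16.5 CPM. Its highest value and the lowest values of Psmb8 and Psmb9 came from the same library, IL-21isoTg mouse 3, the one with a salivary gland share of 41.0%, whose part in them was not tested. Summed over all 32 genes of the class I side, the level was 2805 ± 186 CPM in WT and 2760 ± 41.6 CPM in IL-21isoTg mice (exact permutation test, p = 0.8).

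The class I-like gene Cd1d1 (ENSMUSG00000028076, chromosome 3, 86995834 to 86999441, minus strand), whose product presents lipids to natural killer T cells, stood higher in every IL-21isoTg mouse than in any WT mouse. Its level was 9.34, 13.0 and 11.7 CPM in WT mice and 25.03, 29.9 and 16.9 CPM in IL-21isoTg mice, on 181 to 802 counts. The lowest IL-21isoTg value was that of mouse 3, and it stood above the highest WT value. The log2 fold change was 1.08 (SE 0.26, 95% interval 0.49 to 1.67, adjusted p = 0.677), a 2.12-fold higher level (exact permutation test, p = 0.1). With each mouse left out in turn it was between 0.89 and 1.28. With DESeq2's Wald test on the same counts it was 1.09 (adjusted p = 0.0342), which made Cd1d1 the only one of the 33 genes called under any of the 16 alternatives, over which its adjusted p ranged from 0.0342 to 0.994. Mr1, the other class I-like gene, presents vitamin B metabolites to mucosal-associated invariant T cells. It had 14.1, 27.7 and 18.6 CPM in WT and 14.4, 19.4 and 13.99 CPM in IL-21isoTg mice, a log2 fold change of -0.33 (SE 0.28, adjusted p = 0.845).

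Cd1d1 has a near-identical neighbour, Cd1d2, which the annotation lists as a polymorphic pseudogene. Cd1d2 was higher in the same direction, with 3.74, 2.59 and 1.80 CPM in WT mice and 8.90, 10.3 and 5.32 CPM in IL-21isoTg mice, again without overlap (log2 fold change 1.599, SE 0.38, adjusted p = 0.681). The sum of the pair was 14.05 ± 1.37 CPM in WT and 32.1 ± 9.14 CPM in IL-21isoTg mice (exact permutation test, p = 0.1), and it did not overlap between the genotypes either. The coding sequences were 96.4% identical in the reference, and 12.4% of the 150-base windows and 29.7% of the 75-base windows of Cd1d1 were found unchanged in Cd1d2. Even the 60 bases where the genes differ most, at chr3:86998226-86998285 (minus strand) and chr3:86987608-86987667 (plus strand), hold only 8 differing bases, in capitals, and are shown because an assignment to either gene rests on such bases.
Cd1d1: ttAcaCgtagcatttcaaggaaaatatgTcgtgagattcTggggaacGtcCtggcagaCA
Cd1d2: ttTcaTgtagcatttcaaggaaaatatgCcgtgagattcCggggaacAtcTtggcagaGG
Markers of other cell types were measured beside Cd1d1 and H2-Q1, and 0 of them passed after adjustment, while 3.19% of all tested genes were higher at an unadjusted p under 0.05. Of 7 endothelial markers, 7 had a log2 fold change above 0 and 3 an unadjusted p under 0.05 (Pecam1, Cdh5 and Cldn5, with 1.11, 1.22 and 1.67), and their summed level was 62.4 to 161 CPM in WT and 105 to 276 CPM in IL-21isoTg mice, which overlapped (exact permutation test, p = 0.2). In the list of 7 fibroblast markers, 6 were above 0, Dcn was below, and 3 had an unadjusted p under 0.05 (Col1a1, Col3a1 and Col1a2, with 1.02, 0.92 and 0.85). The sum of the list was 1965 to 3507 CPM in WT and 4374 to 5054 CPM in IL-21isoTg mice, without overlap (exact permutation test, p = 0.1). Singly, 4 fibroblast markers and 1 endothelial marker did not overlap with IL-21isoTg higher, and 0 with IL-21isoTg lower. Over all tested genes these shares were 5.54% and 6.54%. No marker of either list was at 0 in a genotype, and their part in the levels of Cd1d1 and H2-Q1 was not tested. Of 8 basal epithelial markers, 7 were above 0, with an unadjusted p under 0.05 for Cnn1 and Oxtr (0.96 and 1.21), and of 9 luminal markers 6, with Elf5 at 0.70.

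**Figure D3:**
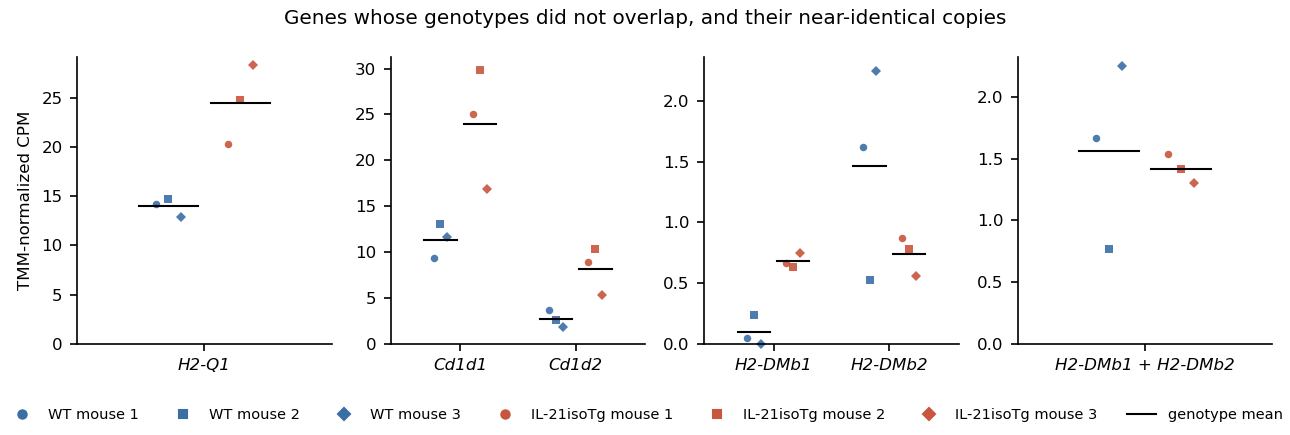
TMM-normalized CPM in each mouse for the 3 genes whose genotypes did not overlap, H2-Q1, Cd1d1 and H2-DMb1, beside the near-identical genes Cd1d2 and H2-DMb2 and the sum of H2-DMb1 and H2-DMb2. Black bars are genotype means, and each panel has its own axis from 0. Cd1d1 and Cd1d2 are both higher in all IL-21isoTg mice, whereas the sum of H2-DMb1 and H2-DMb2 overlaps, with means of 1.56 and 1.42 CPM.

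The classical class II chains were far lower in MECs than the classical class I chains and overlapped between the genotypes. The α chain gene H2-Aa and the β chain gene H2-Ab1 together encode I-A, and H2-Eb1 encodes the β chain of I-E. H2-Aa (chromosome 17, 34282744 to 34287823, minus strand) had 11.1, 5.53 and 7.69 CPM in WT and 5.78, 8.45 and 5.69 CPM in IL-21isoTg mice. H2-Ab1 (34257689 to 34269419, plus strand) had 9.07, 5.91 and 6.48 CPM against 6.49, 7.07 and 7.83 CPM. H2-Eb1 (34305867 to 34316674, plus strand) had 7.08, 3.08 and 8.32 CPM against 4.41, 7.63 and 7.18 CPM. The WT mice held both the highest and the lowest value of each gene. The log2 fold changes were -0.29 for H2-Aa (SE 0.32, 95% interval -1.04 to 0.46, adjusted p = 0.885), -0.01 for H2-Ab1 (SE 0.26, interval -0.60 to 0.59, adjusted p = 0.998) and 0.05 for H2-Eb1 (SE 0.41, interval -0.90 to 1.00, adjusted p = 0.985). Per kilobase of exon, these chains stood at 1.75 to 3.30 CPM in the genotype means, against 108 to 301 CPM for H2-K1 and H2-D1. H2-Eb2 had 0 counts in every mouse. The α chain of I-E, H2-Ea, was not among the 46 genes because the annotation, which follows C57BL/6 mice with their defective copy, lists it as a polymorphic pseudogene. It was present at 9.11, 3.99 and 5.94 CPM in WT and 5.20, 6.92 and 10.3 CPM in IL-21isoTg mice, on 83 to 202 counts.

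Cd74 (chromosome 18, 60803848 to 60812652, plus strand), the invariant chain, was the most abundant class II gene. It had 38.2, 17.5 and 21.8 CPM in WT and 26.6, 22.6 and 24.4 CPM in IL-21isoTg mice, a log2 fold change of -0.07 (SE 0.29, 95% interval -0.74 to 0.59, adjusted p = 0.970). The IL-21isoTg mice lay within the range of the WT mice, and without WT mouse 1, the highest of all, the log2 fold change was 0.34 (adjusted p = 0.735, with 0.735 to 0.996 when any mouse was left out). Ciita, the master regulator of class II transcription, was near the limit of detection, with 25, 16 and 19 counts in WT and 8, 42 and 13 in IL-21isoTg mice, or 0.917 ± 0.187 and 1.04 ± 0.634 CPM.

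**Figure D4:**
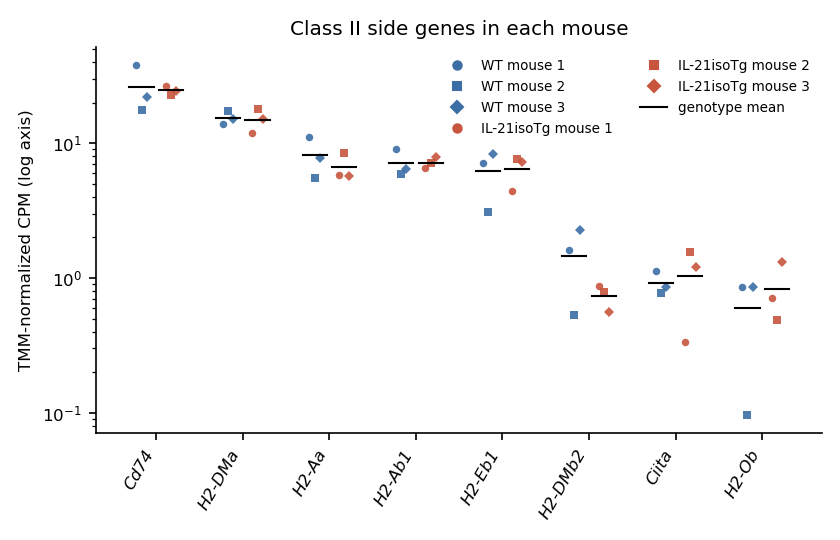
TMM-normalized CPM (log axis) of the tested class II genes in each of the 3 WT (blue) and 3 IL-21isoTg (red) mice, ordered by mean level, with bars for genotype means. H2-DMb1 is left out because it had 0 counts in WT mouse 3. The genotypes overlap in each of the 8 genes, and WT mouse 1 (blue circle) is the highest in Cd74, H2-Aa and H2-Ab1.

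H2-DM, which exchanges the invariant chain fragment for peptide, pairs the α chain H2-DMa with a β chain encoded by H2-DMb1 or H2-DMb2, and H2-DO, made of H2-Oa and H2-Ob, is its inhibitor. H2-DMa had 13.9, 17.4 and 15.1 CPM in WT and 11.9, 17.8 and 15.02 CPM in IL-21isoTg mice and was even between the genotypes. H2-DMb1 (ENSMUSG00000079547, chromosome 17, 34153072 to 34160230, plus strand) had only 1, 5 and 0 counts in WT mice and 16, 17 and 8 counts in IL-21isoTg mice, or 0.0951 ± 0.128 and 0.681 ± 0.0583 CPM. It did not overlap, with a log2 fold change of 2.78 (SE 0.99, 95% interval 0.50 to 5.07, adjusted p = 0.809), but it passed the filter on low counts only through the IL-21isoTg mice, so a difference was a condition of its being tested. The value depended on WT mouse 2, which held 5 of the 6 WT counts, and was 4.59 without it. H2-DMb2 (chromosome 17, 34143307 to 34151555, plus strand) went the other way, with 36, 11 and 50 counts in WT and 21, 21 and 6 in IL-21isoTg mice, a log2 fold change of -0.97 (SE 0.61, 95% interval -2.37 to 0.44, adjusted p = 0.816). WT mouse 2 lay below every IL-21isoTg mouse in CPM and the other WT mice above them. The sum of both β chain genes was 1.67, 0.769 and 2.25 CPM in WT and 1.54, 1.41 and 1.31 CPM in IL-21isoTg mice (exact permutation test, p = 0.9).

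The β chain genes are near-identical in the reference, and the part of this likeness in their split between WT and IL-21isoTg mice was not tested. In the reference, their coding sequences were 95.9% identical, and 11.3% of the 150-base windows and 35.7% of the 75-base windows of H2-DMb1 were found unchanged in H2-DMb2. The following 120 bases are the same in both, at chr17:34157299-34157418 in H2-DMb1 and chr17:34148604-34148723 in H2-DMb2 (plus strand).
H2-DMb1 and H2-DMb2, shared: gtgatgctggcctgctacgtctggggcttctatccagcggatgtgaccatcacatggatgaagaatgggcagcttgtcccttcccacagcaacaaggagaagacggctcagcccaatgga
The 60 bases with the most differences, 17 in capitals, lie at chr17:34155585-34155644 and chr17:34147803-34147862 (plus strand).
H2-DMb1: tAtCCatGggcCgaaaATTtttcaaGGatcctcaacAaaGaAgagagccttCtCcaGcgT
H2-DMb2: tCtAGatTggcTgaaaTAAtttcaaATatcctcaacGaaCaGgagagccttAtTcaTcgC
H2-Ob had 19, 2 and 19 counts in WT and 17, 13 and 14 in IL-21isoTg mice. H2-Oa was not tested, with 33, 5 and 7 counts in WT and 1, 3 and 4 in IL-21isoTg mice, most of them from WT mouse 1. H2-Ke6, which belongs to neither class, had 1 count in WT mouse 1 and 0 elsewhere.

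Markers of the cells that carry class II in a mammary gland were measured in the same libraries. Summed over the 11 class II genes, the level was 84.6, 51.3 and 63.7 CPM in WT and 57.8, 67.2 and 64.3 CPM in IL-21isoTg mice (exact permutation test, p = 0.9). WT mouse 1 had the highest and WT mouse 2 the lowest of these sums. The same held for the sums of 8 B cell markers (11.3 and 3.46 CPM), 8 dendritic cell markers (12.8 and 8.89 CPM) and 10 macrophage markers (29.0 and 19.3 CPM). In each sum the IL-21isoTg mice lay between both WT mice. The dendritic cell sum came mostly from Zbtb46 (8.84 and 4.95 CPM in WT mice 1 and 2) and Ccr7 (2.98 and 1.59 CPM). Single markers did not all follow the sums. WT mouse 1 lay below WT mouse 2 in Itgax (0.406 and 1.06 CPM), Clec9a (0.226 and 0.961 CPM) and Cd163 (0.857 and 2.69 CPM). The dendritic cell gene Itgax was between 0.166 and 1.06 CPM, and Adgre1 of macrophages was between 0 and 0.225 CPM in 5 mice and at 2.42 CPM in IL-21isoTg mouse 3. Cd209a was at 0 in all WT mice and Xcr1 in all IL-21isoTg mice. In the macrophage list, C1qc alone had an unadjusted p under 0.05, with 3, 10 and 5 counts in WT and 17, 19 and 15 in IL-21isoTg mice (log2 fold change 1.69, and 2.31 without WT mouse 2). It would not have passed the filter on low counts without the IL-21isoTg mice, so nothing is read from its difference. The 6 pan-leukocyte markers summed to 97.6 to 149 CPM in WT and 153 to 228 CPM in IL-21isoTg mice, mostly from Lcp1 and Cytip. Cytip had an unadjusted p under 0.05 (log2 fold change 0.95), where 3.19% of all tested genes were higher. The 8 T cell markers summed to 6.63 to 11.6 CPM in WT and 10.9 to 11.7 CPM in IL-21isoTg mice. The part of these cells in the class II level was not tested.

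**Figure D5:**
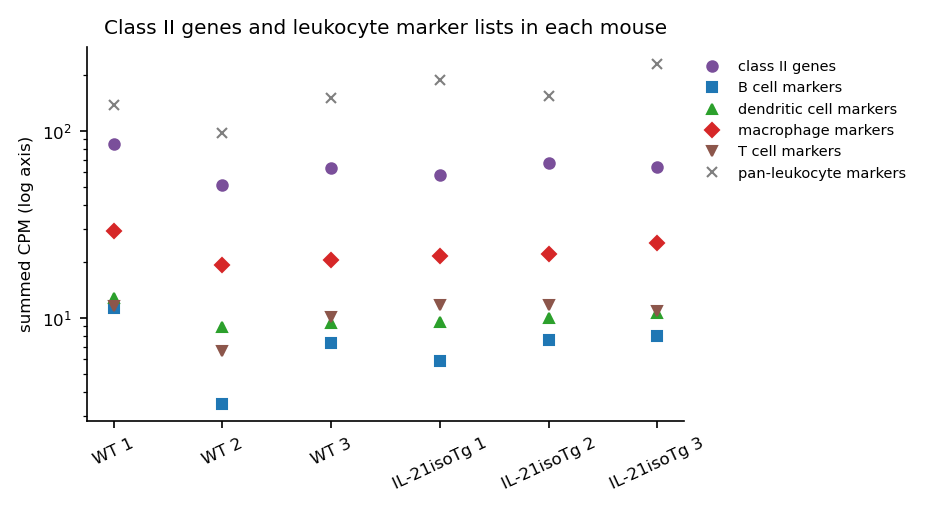
Summed TMM-normalized CPM (log axis) of the 11 class II genes and of 5 leukocyte marker lists in each mouse. The class II sum lies between 51.3 and 84.6 CPM. Its highest and lowest points, WT mouse 1 and WT mouse 2, are also those of the B cell, dendritic cell and macrophage lists. The pan-leukocyte and T cell lists are lowest in WT mouse 2 too (97.6 and 6.63 CPM). Their highest points are IL-21isoTg mouse 3 (228 CPM) and IL-21isoTg mouse 2 (11.7 CPM).

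Other genes of the same pathways were described by lists. Of 12 further genes of class I peptide supply and loading, such as the trimming peptidase Erap1, the proteasome activator genes Psme1 and Psme2 and the constitutive subunit Psmb5, 12 were tested, 0 had an unadjusted p under 0.05 in either direction, 2 were above 0 and 10 below, and the median was -0.08. Of the 9 tested genes of the class II list of endosomal proteases and related genes, 7 were above 0, 4 were higher at an unadjusted p under 0.05 (3.19% of all tested genes) and 0 lower, 6 did not overlap with IL-21isoTg higher (5.54% of all tested genes), and the median was 0.38, while 0 passed after adjustment. Ctsl, which encodes cathepsin L, had 229, 265 and 254 CPM in WT and 439, 459 and 410 CPM in IL-21isoTg mice, a log2 fold change of 0.81 (SE 0.16, adjusted p = 0.523), and its adjusted p ranged from 0.000125 with DESeq2's Wald test to 0.994 over the alternatives. Ifi30, a lysosomal thiol reductase, had 49.7, 48.0 and 50.1 CPM against 79.7, 59.2 and 77.4 CPM (log2 fold change 0.55, adjusted p = 0.809). Ctsd and Ctsh, other cathepsin genes, had log2 fold changes of 0.51 and 0.38 (adjusted p = 0.809 each). Cathepsins serve general lysosomal breakdown too, and Ctss, the cathepsin that processes the invariant chain in antigen-presenting cells, had 3.47, 1.63 and 1.84 CPM against 1.79, 1.75 and 3.17 CPM.

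Among 13 regulators of MHC transcription, 3 were above 0 and 10 below, with a median of -0.14. The genotypes did not overlap in 3 of them, with Irf1 higher and Creb1 and Nfya lower in IL-21isoTg mice, where over all tested genes it was 5.54% higher and 6.54% lower. Creb1 alone was lower at an unadjusted p under 0.05, where 2.63% of all tested genes were. It had 46.5, 46.2 and 43.6 CPM in WT and 32.9, 39.0 and 34.1 CPM in IL-21isoTg mice (log2 fold change -0.36, SE 0.14, adjusted p = 0.809). Irf1, which drives class I transcription after interferon, had 186, 233 and 268 CPM against 348, 306 and 281 CPM (log2 fold change 0.45, SE 0.19, adjusted p = 0.809). Rfx5, which binds class II promoters, had 34.4, 25.5 and 29.2 CPM against 20.7, 22.4 and 26.3 CPM. Ifng had 0 counts in every mouse, and of 5 tested genes of its receptor pathway 0 had an unadjusted p under 0.05. Of 14 interferon-induced genes, 10 were above 0, with a median of 0.25. Cxcl9, a chemokine induced by interferon gamma, was the 1 with an unadjusted p under 0.05, where 3.19% of all tested genes were higher. It had 3.11, 1.63 and 1.98 CPM in WT and 9.31, 5.14 and 2.33 CPM in IL-21isoTg mice (log2 fold change 1.33, SE 0.52, adjusted p = 0.809). The genotypes overlapped in Cxcl9, as IL-21isoTg mouse 3 lay below WT mouse 1.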

How the data were processed

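RNA of MECs from 3 WT and 3 IL-21isoTg mice was sequenced from poly(A)-selected, directional libraries as paired 150-base reads. The processing notes of the submitters name FastQC 0.11.7, Trimmomatic 0.38, HISAT2 2.1.0, SAMtools 1.9, featureCounts 1.6.3, DESeq2 1.24.0 and the build mm10. The strand and multiple-match settings of the counting were not given in the sources used here. The authors deposited whole-number counts per gene and mouse without normalization, which are the values used. They also deposited counts divided by size factors, and a table of their own comparison with fold changes and p-values. Neither was used, apart from the gene positions in that table, which equal those of GENCODE M21 (GRCm38) for 42 of the 42 members listed in both.

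Low genes were removed with filterByExpr of edgeR, set to a count of 10 and a total of 15, and the rest normalized with TMM and compared with edgeR's robust quasi-likelihood test (edgeR 4.0.16, limma 3.58.1, DESeq2 1.42.0, R 4.3.3), with genotype as the only term and Benjamini-Hochberg adjustment over all 17165 genes tested. A call was an adjusted p under 0.05. Single values were compared with exact two-sided permutation tests of log2(CPM + 0.5). Levels per kilobase used the union of annotated exons. Coding sequences were taken from the GENCODE M21 transcripts (the longest complete one per gene), aligned with Biopython 1.88 and searched for windows of 150 and 75 bases, and plots were drawn with matplotlib 3.10.9.

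Genotypes came from the labels, and no sample was left out. The members of the group, the marker and pathway lists and the tests were chosen with earlier results of these data known. Values are given per mouse for the genes fixed as central to each class, for every member with an unadjusted p under 0.05 or non-overlapping genotypes and for the Q and T region genes of the highest level, and the rest by range and count. The pathway and marker genes named are those with an unadjusted p under 0.05 and fixed landmark genes. Genes named as examples, near-identical copies, H2-Ea, Lcp1, Cd209a, Xcr1, Zbtb46, Ccr7, Clec9a, Cd163, Dcn and Nfya were added after their values were seen. So were Pdgfra, Psmb6 and Psmb7. Alternatives were other normalizations, filters and tests, the replicate number as a block, the salivary gland level as a covariate, a pseudocount of 2 and leaving out each mouse. The labels number the mice within each genotype. The edgeR p-values set the genotype difference against the spread among mice of the same genotype, estimated with the help of all tested genes. The permutation p-values rank that difference among all relabelings of the 6 mice. Some landmark genes of the lists are not reported here.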

Additional observations from a re-analysis of the deposited data

How the results depend on the processing

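The 16 alternatives tested 33 members each, except for 27 with at least 10 counts in every mouse and 40 with no filter. Calls were counted only among the 33 members tested in the main comparison. Of these, 0 were called, apart from Cd1d1 with DESeq2's Wald test, which made 1 member called. That test called 72 genes higher and 8 lower over all genes, the likelihood ratio test 52 and 13, no filter on low counts 14 higher, and the salivary gland covariate 1 lower. With each mouse left out in turn, 0 to 6 genes were called higher, 6 of them without WT mouse 3. The median log2 fold change stayed between -0.04 and 0.03 on the class I side, and between -0.13 and 0.21 on the class II side, where the highest was without WT mouse 1. Members with an unadjusted p under 0.05 numbered 2 to 5, with 5 without IL-21isoTg mouse 2. Ctsl, Col1a1, Col3a1 and Cd1d2 were also called by DESeq2, with log2 fold changes of 0.82, 1.04, 0.94 and 1.61.

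The 10 members at least 1 SE from 0 kept their direction under every alternative in which they were tested, and 21 of the other 23 changed sign under at least 1. Among the named chains, H2-Ab1 turned to 0.0060 with DESeq2's size factors, 0.025 with TMM without salivary gland genes, 0.0025 with DESeq2's test and 0.015 with the replicate block, H2-K1 to -0.0025 with no filter and -0.012 with the salivary gland covariate, and Cd74 to 0.0027 with the replicate block. Without single mice, H2-K1 ranged from -0.10 to 0.12, H2-Ab1 from -0.13 to 0.21, H2-Eb1 from -0.27 to 0.33, B2m from -0.47 to 0.047, H2-Aa from -0.50 to 0.022 and Cd74 from -0.29 to 0.34. The cause of these changes was not tested.

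The replicate numbers name mice without pairing them. Same-numbered mice deviated from their genotype means with correlations of -0.26, 0.10 and -0.06 over genes, and with the numbers as a block 0 members were called and 4 had an unadjusted p under 0.05.

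With 3 mice per genotype, the permutation test cannot go below 0.1. Ciita, H2-DMb1, H2-DMb2, H2-Oa, H2-Ob, H2-M2 and H2-M9 rest on at most 50 counts in a mouse, so their values are imprecise, and the 5 class I genes and H2-Eb2 without a count are below 0.280 CPM in the mouse with the highest floor.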
